A study of Mus musculus with 3 samples.

Results

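Genes that handle calcium and magnesium in the distal nephron were examined in endothelial cells sorted from the adult kidney cortex. The 10 genes were taken by function, from a list of calcium binding proteins (Calb1, S100g and Pvalb), channels (Trpv5 and Trpm6), pumps (Atp2b1 and Atp2b4), the calcium-sensing receptor (Casr) and secreted proteins of the distal tubule (Umod and Egf). They were chosen with earlier results of these data known. Each was read at its probeset with the highest mean, among 19938 genes with a probeset of their own. Of the 10, 9 were measured, each by 1 probeset, and Atp2b4 was not matched to a probeset of its own.

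The 3 samples, called replicates 1, 2 and 3, formed 1 group. Each came from 1 kidney of an adult Tg(TIE2GFP)287Sato mouse, of mixed background primarily CD-1 and of unknown sex. In this transgene the Tie2 promoter drives GFP, so the sort rests on that promoter. The medulla was removed, the cortex was digested with collagenase and trypsin, and a 40 µm mesh took out the glomeruli before sorting. No sample of another condition was analysed here, so no groups were compared. The replicates were separate samples in the labels, and the p-values measure only the spread between them.

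Calcium that has escaped the proximal tubule is taken back across the cells of the distal convoluted and connecting tubules. It enters through the apical channel TRPV5, is carried by the calbindins, and leaves through plasma membrane calcium pumps and a sodium-calcium exchanger. Magnesium enters the distal convoluted tubule through TRPM6, and in the thick ascending limb both ions pass between the cells, under control of the calcium-sensing receptor. Uromodulin is secreted by the thick ascending limb, and EGF, which is made in the distal tubule, is known to stimulate TRPM6.

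The deposited values are log2 signals. Each mean was tested against a signal of 100, which is 6.64 on the log2 scale and the raw level used by the study to filter probesets. "Above" and "below" refer to the one-sided moderated test of limma at an adjusted p under 0.05 over all probesets. The limit is not a limit of detection, and the signal of 1 gene was not compared with that of another. The median log2 signal of the arrays was 5.66 to 5.70, and Pearson's r between arrays, across probesets that are not independent, was 0.941 to 0.950. Among all genes 51.2% had the same value in all 3 samples (to 5 decimals) and 28.3% had a pair of equal values. An SD of 0 gives a very small p, so such genes were also tested with the spread of the other probesets.

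All 12 endothelial genes examined were above 100, among them Pecam1, a junctional adhesion protein, at a log2 signal of 10.07 ± 0.02 (SD, n = 3), and Cdh5, the cadherin of endothelial junctions, at 10.62 ± 0.00. Without replicate 3, 7 of the 12 were above. Genes of the proximal tubule were present as well, with 10 of 12 above 100 and 2 neither above nor below. The count was 6 without replicate 1 and 6 without replicate 3. Lrp2, the gene of megalin, had a log2 signal of 9.39 ± 0.08 and Cubn, its partner in endocytosis, had 7.90 in each sample. All 6 genes of macrophages and blood were below 100, including Cd68 at 5.19 and Adgre1 at 4.36 in each sample.

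Of the 9 measured genes, 6 had a signal above 100, 2 were below it, and 1 was neither. Over all genes the shares were 22.9% above and 65.0% below. The count above fell to 2 without replicate 1 (S100g and Atp2b1) and to 1 without replicate 3 (Atp2b1). The values of Atp2b1 were equal in all 3 samples, so leaving a replicate out could not change its mean. The 3 calcium binding proteins, the pump Atp2b1 and the secreted proteins Umod and Egf were above. The channels Trpv5 and Trpm6 were below, and Casr lay at the limit. Of the 6 genes above, 5 (Calb1, S100g, Pvalb, Umod and Egf) are on a list from the study. It holds genes higher in cortical than in glomerular and medullary endothelium. It was drawn up from these cortical samples with a filter on signal, so the levels of these 5 genes are not independent evidence. The paper likened the list mainly to the proximal tubule and read this as a minor contamination of the sorted cells. The same 6 genes reached 100 in each of the 3 samples, as did 28.0% of all genes.

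**Figure D1:**
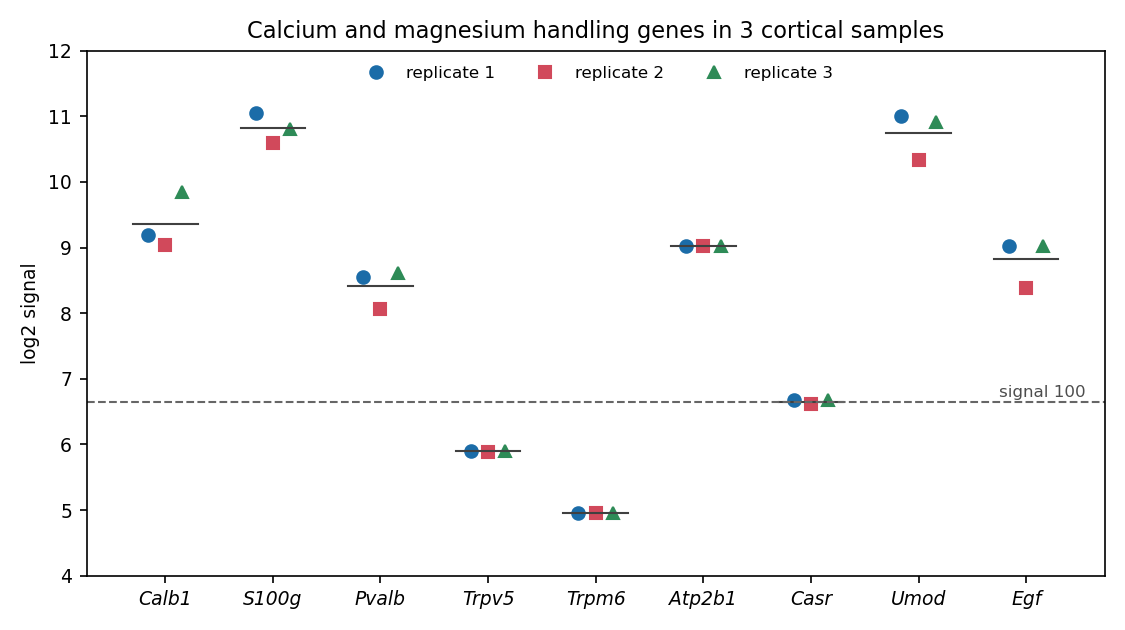
Log2 signal of the 9 measured genes in replicates 1, 2 and 3 (points), with the mean of the 3 samples (solid lines) and a signal of 100 (dashed line). Calb1, S100g, Pvalb, Atp2b1, Umod and Egf lie above the dashed line in every sample, Trpv5 and Trpm6 lie below it, and Casr lies on it. Heights of different genes come from different probes and are not compared.

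S100g and Umod are introduced with the sequence before their transcription start, since both varied between samples and their promoter windows held motifs that were searched. Windows of 300 bases, 250 before and 50 after the start, were taken from RefSeq (GRCm38.p6) for 9 of the 10 genes, at the outermost start where there were several. Calb1 was not in that table. The 5 motifs given here, searched on both strands, were picked without a rule set beforehand. The TATA box was searched as TATAAA and was found in 13.6% of all 32851 windows. The letters CCAAT, the box of that name, were found in 37.4%. The core of many nuclear receptor sites, AGGTCA, was found in 16.3%. The GC box, GGGCGG, was found in 35.7% and the E-box, CACGTG, in 7.15%. The 250 bases before the start are given 5′ to 3′ on the strand of the gene, with motif matches in capitals. They lie at chrX:162964600-162964849 for S100g and at chr7:119479263-119479512 for Umod, both on the minus strand.

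S100g: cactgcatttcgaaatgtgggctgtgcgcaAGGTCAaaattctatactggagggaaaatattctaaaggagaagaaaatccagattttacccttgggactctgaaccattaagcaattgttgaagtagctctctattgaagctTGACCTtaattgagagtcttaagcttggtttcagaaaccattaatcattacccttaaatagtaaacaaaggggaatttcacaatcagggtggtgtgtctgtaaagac

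Umod: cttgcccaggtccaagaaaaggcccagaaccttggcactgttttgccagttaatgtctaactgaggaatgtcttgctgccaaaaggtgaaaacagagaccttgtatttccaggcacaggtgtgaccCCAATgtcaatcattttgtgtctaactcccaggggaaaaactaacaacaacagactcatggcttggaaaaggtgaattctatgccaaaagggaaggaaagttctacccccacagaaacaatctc

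In S100g, AGGTCA began at position -220 and, on the opposite strand, at -107 from the start, and TATAAA began at the annotated start itself, at position 1. In Umod, CCAAT began at -124. Trpv5 held TATAAA at -43. Atp2b1 held the GC box on the opposite strand at -219, -28, -24 and -20, the last 3 overlapping, and the E-box, which reads the same on both strands, at 9. The windows of the 5 other genes (Pvalb, Trpm6, Atp2b4, Casr and Egf) held none of the 5 motifs. Matches are descriptions of letters, not evidence of binding.

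The calcium binding proteins were well above the limit in every sample. S100g, which encodes calbindin-D9k, gave log2 signals of 11.05, 10.59 and 10.81, listed here and throughout in the order of replicates 1, 2 and 3. Replicate 1 was the highest and replicate 2 the lowest. The mean was 10.82 ± 0.23 (SD, n = 3), a signal of 1810, and 4.18 above the limit on the log2 scale (limma, adjusted p = 0.00167). The call was lost when replicate 3 was left out (adjusted p = 0.0881), with the mean still 4.18 above the limit.

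Calb1, which encodes calbindin-D28k, the main calcium shuttle of the distal convoluted and connecting tubules, had 9.19, 9.04 and 9.85. Replicate 3 stood apart, 0.66 above replicate 1 and 0.81 above replicate 2. The mean was 9.36 ± 0.43 (SD, n = 3), a signal of 658, and was above the limit (limma, adjusted p = 0.0129). The call was lost without replicate 1 (adjusted p = 0.133), without replicate 2 (0.105) and without replicate 3 (0.0524), each from 2 samples, while the mean stayed at least 2.47 above the limit on the log2 scale.

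Pvalb encodes parvalbumin, a calcium buffer that in the kidney marks the early distal convoluted tubule. Its log2 signals were 8.55, 8.07 and 8.62. Replicates 1 and 3 were close to each other, and replicate 2 was lower by 0.48 and 0.55. The mean was 8.41 ± 0.30 (SD, n = 3), a signal of 341, and was above the limit (limma, adjusted p = 0.0147). The adjusted p was 0.150 without replicate 1 and 0.192 without replicate 3.

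The channels were both below the limit. Trpv5, the apical calcium channel, had log2 signals of 5.90, 5.89 and 5.90, with a mean of 5.90 ± 0.01 (SD, n = 3), a signal of 59.5 (limma, adjusted p = 1.25e-05). Trpm6, the magnesium channel and kinase, had 4.95 in each of the 3 samples, a signal of 30.9 (limma, adjusted p = 3.64e-10, and 0.000370 with the spread of the other probesets). The samples did not differ by more than 0.01 for Trpv5 and were equal for Trpm6. With a limit of 50, Trpv5 was above it (limma, adjusted p = 0.000252), while Trpm6 remained below.

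Atp2b1 encodes a plasma membrane calcium pump that is used by most cell types, endothelial cells among them. Its log2 signal was 9.02 in all 3 samples, a signal of 518, and was above the limit (limma, adjusted p = 1.68e-06, and 0.000648 with the spread of the other probesets). It was the 1 gene above 100 that is not on the list drawn from these samples. It remained above when any replicate was left out, but with equal values this leaves the mean and the SD unchanged. That check therefore says nothing about how firm the call is.

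Casr, the calcium-sensing receptor of the thick ascending limb, lay at the limit, with log2 signals of 6.67, 6.62 and 6.67. The mean was 6.65 ± 0.03 (SD, n = 3), a signal of 100, and was neither above nor below (adjusted p = 1.0 for a mean above and 0.898 for one below, both by limma). The distance from the limit, 0.01 on the log2 scale, was smaller than the SD. Without replicate 2, Casr was above (adjusted p = 0.00841), a call that rests on a pair of equal values.

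Of the secreted proteins, Umod, which encodes uromodulin, reached log2 signals of 11.00, 10.33 and 10.92. Replicates 1 and 3 were close, and replicate 2 was 0.67 below replicate 1. The mean was 10.75 ± 0.36 (SD, n = 3), a signal of 1720, and lay 4.10 above the limit on the log2 scale (limma, adjusted p = 0.00418). The adjusted p was 0.0687 without replicate 1 and 0.122 without replicate 3.

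Egf, which encodes the precursor of epidermal growth factor, had 9.03 in replicates 1 and 3 and 8.39 in replicate 2. It was 0.63 lower in replicate 2 than in the others, close to the difference seen for Umod. The mean was 8.82 ± 0.37 (SD, n = 3), a signal of 451, and was above the limit (limma, adjusted p = 0.0145). The adjusted p was 0.142 without replicate 1 and 0.202 without replicate 3. In bulk samples, fewer cells of a type and less RNA per cell cannot be told apart, and this holds for each difference between samples.

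All 5 genes with a range of 0.4 or more over the samples (Calb1, S100g, Pvalb, Umod and Egf) were lowest in replicate 2. A range of this size was found in 32.7% of the 6127 genes whose mean signal was at least 100, and replicate 2 was strictly lowest in 30.2% of the 2001 genes with such a range. After quantile normalization and after a shift of the columns to the same median, all 5 were again lowest in replicate 2, and the share of the 2001 genes was 33.8% and 34.0%. Trpv5 and Casr were also lowest there, by 0.01 and 0.05. Over all 6127 genes, many of which have equal values and no strictly lowest sample, the share was 19.1%. Calb1 and Pvalb were highest in replicate 3, as were 32.5% of the 2001 genes and 20.3% of the 6127. These are descriptions of 3 samples of 1 group, with no test.

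The marker genes of the distal segments were set beside these differences, with members left out. Of these genes, 5 of the 8 of the thick ascending limb and 3 of the 7 of the distal convoluted tubule are also in the lists of ion handling described further on. For the thick ascending limb, 2 of 8 genes (Slc12a1 and Cldn19) were above 100, 2 were below and 4 were neither, and the summed signal of the list was 1970, 1190 and 1630 in replicates 1, 2 and 3. For the distal convoluted tubule, 4 of 7 genes were above and 1 was below, with sums of 2440, 1610 and 2280. With the spread of the other probesets 3 were above, as Emx1, equal in the 3 samples, was lost (limma, adjusted p = 0.465). Both sums were lowest in replicate 2. That of the thick ascending limb was so through Kcnj1, with signals of 471, 133 and 597, and without it the sums were 1500, 1060 and 1030, lowest in replicate 3. That of the distal convoluted tubule was 928, 810 and 1020 without Fxyd2, which varied most in signal, though not on the log2 scale. These single-gene checks were chosen after the values were seen. Without replicate 1 or without replicate 3, 1 of 8 and 2 of 7 were above. After quantile normalization or a median shift, 4 of the 8 thick ascending limb genes were above. For the proximal tubule the sum was 17700, 14900 and 15700, also lowest in replicate 2, and for endothelium it was 14000, 14400 and 12100. The gene that varied most in signal was left out here too, again after the values were seen. Without Kap the proximal tubule sums were 9290, 7380 and 9180, still lowest in replicate 2. Without Emcn the endothelial sums were 11000, 10400 and 9750, so replicate 2 was highest only through Emcn.

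Calb1 differed from Umod and Egf in its high value in replicate 3. In the lists of connecting tubule with principal cells and of intercalated cells, replicate 3 had the highest sum, at 665, 535 and 933 for the former and at 1200, 876 and 1910 for the latter. Of the first of these lists 0 of 8 genes were above 100 by limma (1 at an unadjusted p under 0.05) and 4 were below. Without replicate 3, 1 was above and 1 below, and without replicate 1, 0 were above and 1 was below. Of the second, 2 of 8 were above and 4 were below, and 1 was above without replicate 1, without replicate 2, after quantile normalization or with the spread of the other probesets. Replicate 3 stayed highest without the gene that varied most in each list, chosen after the values were seen. The sums were then 553, 458 and 667 without Hsd11b2, and 701, 679 and 792 without Atp6v1g3. Atp6v1g3, a subunit of the proton pump of intercalated cells, had log2 signals of 8.97, 7.62 and 10.13 and was neither above nor below (limma, adjusted p = 0.14). The 2 genes above were Atp6v0d2, with 7.99, 7.98 and 8.36, and Slc4a9, with 6.76 in each sample. Slc4a9 was lost with the spread of the other probesets (limma, adjusted p = 0.665). Not all genes of this list were highest in replicate 3. Atp6v1b1 had 6.63, 6.57 and 6.57, Slc4a1 had 6.49, 6.29 and 6.49, and Aqp6 had 5.77 in each sample. Hsd11b2, the enzyme that protects aldosterone target cells from glucocorticoids, had 6.81, 6.27 and 8.05. Aqp2, the vasopressin-regulated water channel, had 6.79, 6.79 and 7.01, and Aqp3, the basolateral water channel of principal cells, had 6.37, 6.42 and 6.67. Smooth muscle and pericyte genes were also highest in replicate 3, with sums of 1560, 1570 and 3430 over 6 genes, of which 1 was above 100 (0 without replicate 1 or without replicate 2, 2 after quantile normalization or a median shift, and 3 with the spread of the other probesets), and Acta2, the smooth muscle actin gene, had 8.43, 7.97 and 9.50. The part of these cells in the values of Calb1 and the other genes was not tested.

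**Figure D2:**
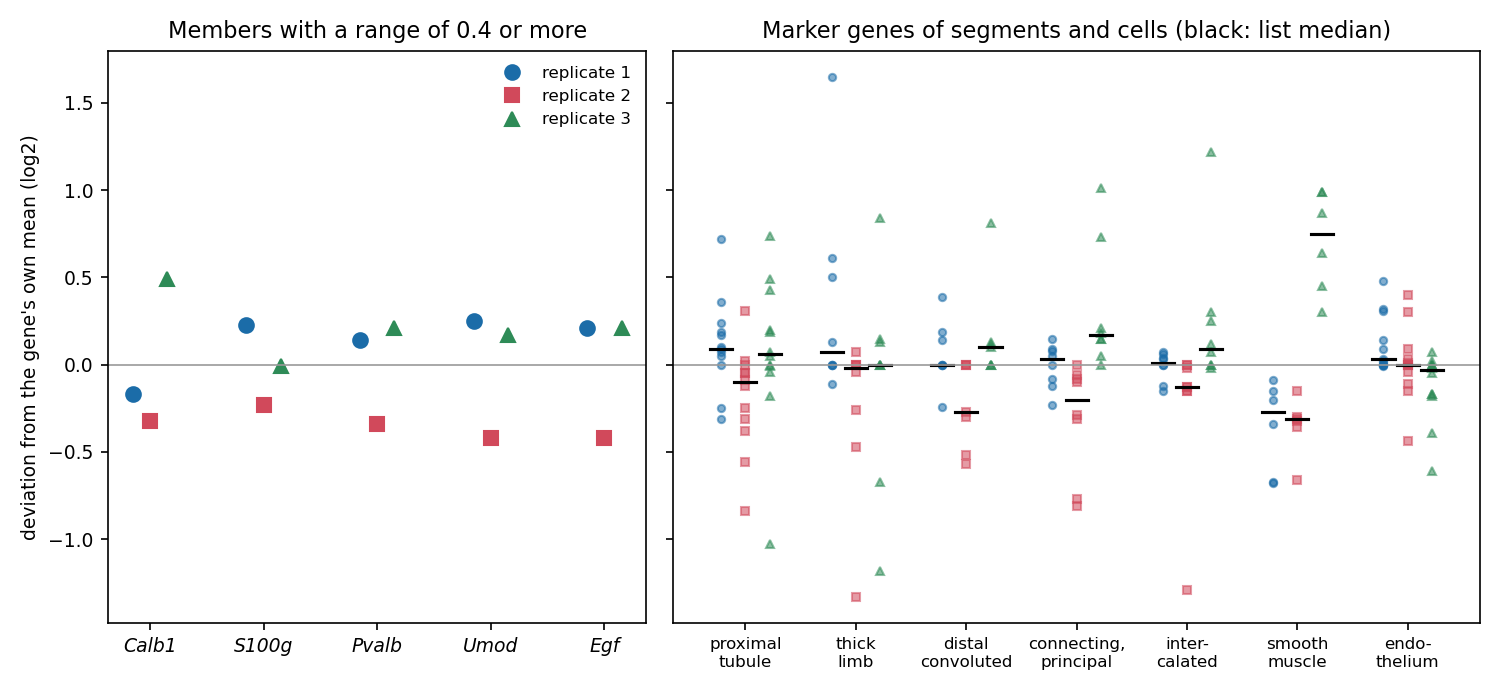
Deviation of each gene from its own mean over replicates 1, 2 and 3 (log2), for the 5 genes with a range of 0.4 or more (left) and for marker genes of nephron segments, smooth muscle and endothelium (right; small points are genes, black lines are list medians). The 5 genes are lowest in replicate 2, and Calb1 is highest in replicate 3 at 0.49 above its mean. In replicate 3 the median of the smooth muscle list is 0.75. The medians of the other lists shown there run from -0.03 (endothelium) to 0.17 (connecting tubule and principal cells).

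Genes whose deviations over the 3 samples were closest to those of a member were found among 6126 genes with a mean of 100 or more. For Umod these were Ghr, the growth hormone receptor gene, Bicc1 and Atp6v1g1, with a largest difference in any sample of 0.012, 0.016 and 0.021 on the log2 scale. Ghr had log2 signals of 8.97, 8.28 and 8.88. For Egf they were Tdrd3, Slc7a8, an amino acid transporter gene, and Dcaf7 (0.001, 0.002 and 0.003). For Pvalb they were Nlrp6, Atp1b1, a subunit of the sodium pump, and Pdap1 (0.006, 0.014 and 0.017). For Calb1 they were Scnm1, Atpaf1 and Crip1 (0.011, 0.014 and 0.019). With 3 samples many genes are alike, and between 58 and 108 genes lay within 0.1 of each of these members in every sample.

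Other genes of calcium, magnesium and salt handling were counted from 5 lists of 40 genes, of which 36 were measured. Of these, 13 (36.1%) were above 100, 14 (38.9%) were below and 9 were neither, against 22.9% above and 65.0% below over all genes. The lists were chosen with earlier results of these data known, so the shares are a description and not independent evidence. As a description of all 5 lists together, their median log2 signal was 6.75, beside 5.88 over all genes. Without replicate 3, 8 were above.

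Of the genes for calcium entry and exit, 2 of 8 were above the limit and 6 were below. S100a10, an annexin partner known to bring TRPV5 to the membrane, had log2 signals of 10.56, 10.91 and 10.21, and a mean of 10.56 ± 0.35 (SD, n = 3; limma, adjusted p = 0.00428). Its partner Anxa2 had 9.31 in each sample (limma, adjusted p = 1.68e-06). S100a10 was highest in replicate 2. Slc8a1, the sodium-calcium exchanger of the distal tubule, was below at 6.23 in each sample, and Trpv6, the channel related to TRPV5, was below at 5.24 ± 0.02. The pumps Atp2b2 and Atp2b3, used mainly in the nervous system, were below at 6.14 and 5.41, as were the exchangers Slc8a2 at 5.54 and Slc8a3 at 5.24. Of the 2 genes above, S100a10 was lost without replicate 1 and without replicate 3, when 1 of the 8 genes was above in each case.

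Among genes of magnesium transport, 3 of 9 were above 100, 4 were below and 2 were neither. Fxyd2, the gamma subunit of the sodium pump, had 10.56, 9.64 and 10.30 and was above (limma, adjusted p = 0.00932). It was lowest in replicate 2, like Umod, Egf and Pvalb. Pcbd1, an enzyme of pterin recycling that also acts as a transcriptional cofactor, had 7.81, 8.57 and 8.65 and was above (limma, adjusted p = 0.0373). It was lowest in replicate 1.

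Trpm7, the widely used relative of Trpm6, was above at 8.24 in each sample (limma, adjusted p = 1.68e-06). Below were Cnnm4 at 6.28, Slc41a3 at 5.81, Kcna1, a potassium channel of the distal convoluted tubule, at 5.25, and Kcnj10, its basolateral potassium channel, at 5.97, each equal in the 3 samples. Cnnm2, a basolateral magnesium protein of the distal tubule, had 6.57 ± 0.30, and Slc41a1 had 6.70 ± 0.42. Both were neither above nor below, and both were highest in replicate 3. The count above was 1 without replicate 3.

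Of the genes of the hormone response, 3 of 7 were above 100, 2 were below and 2 were neither. Pth1r, the parathyroid hormone receptor gene, had 7.38 in each sample (limma, adjusted p = 1.76e-06). Kl, the gene of klotho, the FGF23 co-receptor of the distal tubule, had 7.78, 7.64 and 7.69 (limma, adjusted p = 0.00223). Fgfr1, a receptor that works with klotho, had 6.97 in each sample, a call that ended with the spread of the other probesets (adjusted p = 0.114). Vdr, the vitamin D receptor gene, had 7.20, 6.79 and 7.86 and did not pass the test (limma, adjusted p = 0.287). Rxra, the partner of the vitamin D receptor, had 6.79 ± 0.12 and was neither. Egfr, the receptor for EGF, was below at 5.92 in each sample, as was Cyp27b1, the enzyme that activates vitamin D, at 4.86 ± 0.14. Each of the 3 calls above ended with a limit of 200.

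Of the claudins that set the paracellular path of the thick ascending limb, 1 of 4 was above 100 (2 after quantile normalization or a median shift), 1 was below and 2 were neither. Cldn16, required for magnesium and calcium uptake there, had log2 signals of 8.15, 6.03 and 5.32. Its range of 2.82 was larger than that of any member, and it was neither above nor below (limma, one-sided below, adjusted p = 0.619). Cldn10, which has 2 probesets, had 8.73, 8.19 and 7.45 but did not pass the test for a mean above (limma, adjusted p = 0.0892). Both were lowest in replicate 3, unlike Umod. Cldn19, the partner of claudin-16, had 6.89 in each sample and was above (adjusted p = 5.10e-06), a call that ended with the spread of the other probesets (adjusted p = 0.225). Cldn14, the claudin that opposes them, was below at 5.41 in each sample.

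In the list of sodium chloride transport, 4 of 8 measured genes were above 100, 1 was below and 3 were neither. Slc12a1, the sodium-potassium-chloride cotransporter of the thick ascending limb, had 8.68 in replicates 1 and 3 and 8.28 in replicate 2 (limma, adjusted p = 0.00747). Slc12a3, the sodium chloride cotransporter of the distal convoluted tubule, had 7.95, 7.46 and 7.86 (limma, adjusted p = 0.0274). Kcnj1, the apical potassium channel of the thick ascending limb, had 8.88, 7.05 and 9.22, a range of 2.17, and did not pass the test (limma, adjusted p = 0.197). All 3 were lowest in replicate 2, as were 5 of the 6 genes of this list with a mean of 100 or more. Of all 6127 genes with such a mean the share was 19.1%, and of the 2001 with a range of 0.4 or more it was 30.2%. Among the 5, Kcnj16 was lowest there by only 0.01.

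Kcnj16, a basolateral potassium channel gene, had 9.30 ± 0.15, and Wnk1, a kinase of salt transport that many cells use and that has 2 probesets, had 9.76 in each sample. Both were above. Bsnd, which encodes barttin, was below at 5.90 ± 0.10. Stk39, the kinase that acts on both cotransporters, had 8.35, 7.35 and 8.45, and Wnk4 had 6.66, 6.25 and 6.64. Neither was above or below. Without replicate 1 or without replicate 3, 2 of the 8 were above.

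**Figure D3:**
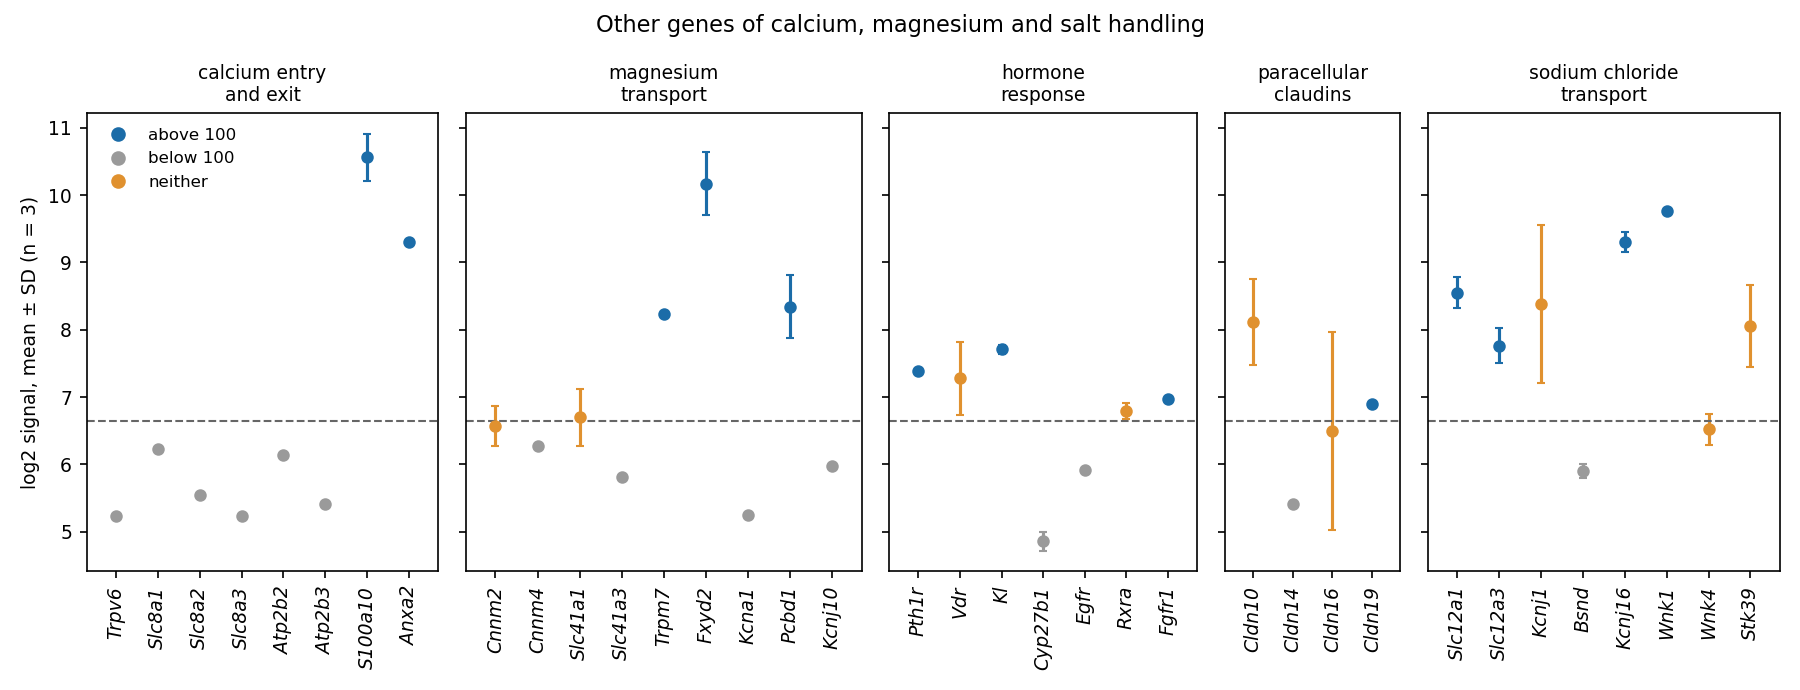
Mean log2 signal of the 36 measured genes of the 5 lists in the 3 samples, with error bars of 1 SD (n = 3) and a signal of 100 (dashed line). Colours give the call by limma, with 13 genes above 100, 14 below and 9 neither. The widest bar is that of Cldn16, and points without a visible bar have equal or nearly equal values.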

How the data were processed

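RNA of 3 sorted samples was amplified in 1 round and hybridized to Affymetrix Mouse Gene 1.0 ST arrays, 1 array per sample. The authors deposited log2 signals for 35557 probesets. Summarising and normalization were by RMA in GeneSpring GX according to the paper's methods, while the submitters' processing notes list Affymetrix Expression Console. For the latter's version, and for which arrays were normalized as 1 set, nothing is given in the sources used here. Arrays carry no read depth, so their number, 3, limits the precision.

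Of the probesets, 21789 had 1 gene in the probe annotation, 1621 had several and 12147 had none, and 21698 of the first were matched to the RefSeq gene table. The log2 signal minus log2 of 100 was modelled by its mean alone, per probeset and with a variance trend (limma 3.58.1, R 4.3.3). A mean above and a mean below were tested one-sided with Benjamini-Hochberg adjustment over all probesets (residual degrees of freedom 2, prior 0.297). The script was tested on simulated data without equal values, so that test does not cover genes with an SD of 0. Tables were made with pandas 2.3.3 and numpy 2.4.6 in Python 3.11.15. Alternatives were limits of 50 and 200, no test, quantile normalization, a median shift, no trend, a spread for equal values, only probesets of 1 gene, and leaving out each replicate.

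Named genes are all members, up to 4 genes of each pathway list in written order, all genes of any count of 5 or fewer, the first 2 of each marker list, and the 3 genes most like each member with a range of 0.5 or more; not every such gene is given. Members and lists were chosen with earlier results of these data known. Of 4 measured podocyte genes, 1 was above 100 and 3 were below. The columns of the authors' comparisons in the supplements were not used. A further promoter motif that was searched and some listed genes are not reported here.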

Additional observations from a re-analysis of the deposited data

How the results depend on the processing

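Of the 9 measured genes, 6 were above 100 and 2 below under quantile normalization, a median shift, no variance trend, a spread for equal values, only probesets of 1 gene, and a signal of 100 in every sample. Each gene had 1 probeset, so a mean over probesets changed nothing. With a limit of 200, 3 genes were above, and with a limit of 50, 1 was below. Trpv5 was then above 50 (adjusted p = 0.000252 from limma) and Casr was below 200 (adjusted p = 7.66e-05). Leaving out 1 replicate gave 1 to 6 genes above, from 2 samples with 1 residual degree of freedom; S100g and Atp2b1 were left without replicate 1, Atp2b1 without replicate 3, and without replicate 2 Casr entered and Calb1 was lost. No called mean of a member crossed the limit of 100. Over all genes, 10224 were above 50, 1869 were above 200 and 8066 were below 50, where 4569 were above and 12955 below 100. Of the 36 pathway genes, 28 were above 50, 6 were above 200, 7 were below 50, and 8 to 13 were above 100 when 1 replicate was left out. The number of members lowest in replicate 2 was 7, and 9 after quantile normalization, when the share of the 6127 genes lowest there rose from 19.1% to 27.6%. No paired analysis was possible because there is 1 group of samples. Background correction could not be varied, since only summarised values were used here.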
